A study of Mus musculus with 33 samples.

Results

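The genes described here encode the subunits of respiratory chain complexes I to IV. They were chosen by symbol, as the mouse Nduf genes of the a, ab, b, c, s and v series, the 4 Sdh genes, the Uqcr genes and the Cox genes of subunits 4 to 8, with Ndufaf assembly factors left out. Of 37583 gene IDs in the count files, 74 met the rule: 39 of complex I, 4 of complex II, 10 of complex III and 21 of complex IV, with Ndufa4 and Ndufa4l2 placed in complex IV. The 13 subunits encoded by mitochondrial DNA were not analysed here. Poly-A RNA had been sequenced in 33 mouse libraries of strain 129SV/Jae/C57BL6J, 3 in each of 11 groups. The groups were SSEA1+ cells of d3, d6, d9 and d12 of reprogramming and of the iPS stage, SSEA1- cells of the same 5 stages, and MEF, the starting mouse embryonic fibroblasts. SSEA1 is a surface carbohydrate on which the cells were separated by FACS. Reprogramming took place in ES media with dox and AA and MEF cells grew in MEF media, so medium and reprogramming cannot be told apart in any comparison with MEF. The reprogramming factors and the alleles that carried them are not given in the sources used here.

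The respiratory chain passes electrons from NADH (complex I) or succinate (complex II) to coenzyme Q, on to cytochrome c through complex III, and to oxygen through complex IV, while complexes I, III and IV pump protons that drive ATP synthesis. Each complex has catalytic core subunits and small accessory subunits, and several complex IV subunits exist as paralogues used in different tissues: Cox6b2 and Cox7b2 are known from testis, Cox7a1 and Cox6a2 from heart and muscle, Cox4i2 from lung, and Ndufa4l2 from cells in low oxygen. Somatic cells that become pluripotent are known for a shift in the balance of respiration and glycolysis.

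Promoter sequences are shown for the pair of paralogues whose balance shifted in every group after MEF, Cox6b2 and Cox6b1, and for 2 subunits that later separated the SSEA1 fractions, Cox5a and Uqcrc1. Each runs 5′ to 3′ on the gene's strand from 250 bases before the RefSeq start to 30 after it (RefSeq, GRCm38.p6), and capitals mark any match to a motif searched on both strands. The locations are chr7:4753065-4753344 (minus strand) for Cox6b2, chr7:30626085-30626364 (minus strand) for Cox6b1, chr9:57520982-57521261 (plus strand) for Cox5a and chr9:108936398-108936677 (plus strand) for Uqcrc1.
Cox6b2: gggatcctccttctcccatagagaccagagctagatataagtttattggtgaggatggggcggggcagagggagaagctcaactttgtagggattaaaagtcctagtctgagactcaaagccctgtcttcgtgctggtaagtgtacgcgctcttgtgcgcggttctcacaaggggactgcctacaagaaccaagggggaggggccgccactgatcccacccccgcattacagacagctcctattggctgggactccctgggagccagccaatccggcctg
Cox6b1: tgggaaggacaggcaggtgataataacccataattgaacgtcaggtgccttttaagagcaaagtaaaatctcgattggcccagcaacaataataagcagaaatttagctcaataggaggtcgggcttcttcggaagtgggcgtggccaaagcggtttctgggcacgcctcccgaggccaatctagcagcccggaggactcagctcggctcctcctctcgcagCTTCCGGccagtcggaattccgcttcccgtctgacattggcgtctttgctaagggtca
Cox5a: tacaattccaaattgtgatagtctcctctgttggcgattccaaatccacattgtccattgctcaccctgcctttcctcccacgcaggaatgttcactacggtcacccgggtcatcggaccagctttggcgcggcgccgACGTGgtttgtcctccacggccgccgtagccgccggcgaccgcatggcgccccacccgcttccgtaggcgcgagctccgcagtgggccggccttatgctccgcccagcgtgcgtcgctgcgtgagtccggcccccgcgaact
Uqcrc1: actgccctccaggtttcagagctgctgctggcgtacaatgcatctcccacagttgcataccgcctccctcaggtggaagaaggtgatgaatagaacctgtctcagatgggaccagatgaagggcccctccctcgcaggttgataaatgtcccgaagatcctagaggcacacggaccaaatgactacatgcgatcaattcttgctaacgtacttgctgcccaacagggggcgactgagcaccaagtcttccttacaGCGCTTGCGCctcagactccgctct
The Cox6b2 window held none of the motifs, and the capitals in Cox6b1 are the reverse strand of CCGGAAG, the ETS motif bound by GABPA. Those in Cox5a are ACGTG, the core of hypoxia response elements, and those in Uqcrc1 are the looser of 2 forms of the NRF1 motif, with 1 free position. The Cox5a window did not hold the first bases of that gene's transcripts in GENCODE, and the other 3 did. Over whole RefSeq windows, available for 53 of the 66 tested members, the looser NRF1 form stood in 11 members (20.8%) and in 5.19% of 27025 genes, and CCGGAAG in 11 members (20.8%) and in 9.93% of genes. The YY1 motif AAGATGGC stood in 7 members (13.2%) and in 3.19% of genes. ACGTG stood in 10 members (18.9%) and in 21.8% of genes. The strict NRF1 form, which is contained in the looser one, stood in 3 members (5.66%) and in 1.07% of genes. These members were Cox6a1, Ndufa11 and Uqcrc1, in Uqcrc1 outside the stretch printed above. TCAAGGTCA of the estrogen-related receptors stood in 1 member (1.89%) and 0.466% of genes. The members counted are tested ones, whereas the 27025 genes are all those with a window, tested or not. The 2 shares are therefore not matched for expression. All these matches are a description of letters, not of binding.

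Reads counted in genes ranged from 8.93 to 41.69 M per library. Levels are counts per M counts in genes with TMM scaling (CPM). Before that scaling, 3 counts equal 0.336 CPM in the shallowest library and 0.072 CPM in the deepest. The TMM factors of these libraries, 0.805 and 0.95, make both values somewhat higher on the scale used here. The filter on low counts passed 66 members: 36 of complex I, 4 of complex II, 8 of complex III and 18 of complex IV. The other 8 never exceeded 0.445 CPM in any library: the pseudogenes Ndufa11b, Ndufb4c, Ndufs6b, Uqcrh-ps1, Uqcrh-ps2 and Cox6c2, and the muscle isoform Cox8b and testis isoform Cox8c of subunit 8. The summed level of 8 fibroblast markers was 33.3 to 1760 CPM in SSEA1+ libraries and 2514 to 12542 CPM in SSEA1- libraries, against 67779 to 75553 CPM in MEF. The summed level of 8 pluripotency markers was 4123 to 6104 CPM in iPS SSEA1+ libraries and 1.67 to 3.43 CPM in MEF. By these markers iPS SSEA1- replicate 3 stood apart, with 2403 CPM, against 127 and 394 CPM in the other iPS SSEA1- libraries. Without it, 25 members were called in iPS SSEA1- cells over MEF, against 22 with it, and 29 between the iPS fractions, against 15 with it. By macrophage markers (7 genes) replicate 2 stood apart: in SSEA1- cells it had 38.8 CPM at d3, 177 CPM at d6, 238 CPM at d9 and 530 CPM at the iPS stage, where the other SSEA1- libraries had 8.96 to 34.9 CPM at all stages, and in MEF it had 137 CPM, where the others had 4.18 and 22.0 CPM. SSEA1+ libraries had 7.07 to 102 CPM of them. Brown fat markers (4 genes) stood at 109 CPM in iPS SSEA1- replicate 2, and at 4.46 and 2.79 CPM in the other iPS SSEA1- libraries. The part of these cells in the results was not tested. In bulk RNA, fewer cells of a type and less RNA per cell cannot be told apart. The labels do not state whether replicates came from separate cultures or animals. The p-values therefore reflect the spread among these libraries alone, and that spread may be technical.

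Cox6b2, the paralogue of complex IV subunit 6b known from testis, rose over MEF in every SSEA1+ and SSEA1- group. Its level was 23.8, 70.2 and 43.5 CPM in the d3 SSEA1+ libraries, 93.5, 110 and 83.1 CPM at d6, 80.3, 94.6 and 80.7 CPM at d9, 69.3, 128 and 111 CPM at d12 and 107, 103 and 85.1 CPM in iPS SSEA1+ cells, against 2.73, 8.65 and 6.54 CPM in MEF. SSEA1- cells had 16.9, 69.4 and 60.1 CPM at d3, 111, 139 and 107 CPM at d6, 112, 100 and 114 CPM at d9, 102, 98.1 and 109 CPM at d12 and 64.4, 43.7 and 50.6 CPM at the iPS stage. Every library after MEF lay above every MEF library, and replicate 1 was the lowest of its group in both d3 fractions and in MEF. In log2 fold change over MEF (± standard error), Cox6b2 rose by 2.96 ± 0.42 in d3 SSEA1+ cells (Benjamini-Hochberg adjusted p = 3.2e-06, from the quasi-likelihood test of edgeR that gave every adjusted p here), by 4.13 ± 0.44 at d12 (adjusted p = 1.8e-08) and by 4.07 ± 0.44 in iPS SSEA1+ cells (adjusted p = 1.5e-08). In SSEA1- cells it rose by 3.06 ± 0.42 at d3 (adjusted p = 3.5e-06), by 4.34 ± 0.44 at d6 (adjusted p = 5.1e-08) and by 3.17 ± 0.42 at the iPS stage (adjusted p = 4.2e-06). All comparisons with MEF share the same 3 MEF libraries.

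The general paralogue Cox6b1 moved less. Its log2 change over MEF was -0.08 to 0.58 in the 5 SSEA1+ groups and 0.16 to 0.80 in the 5 SSEA1- groups. It was called higher than MEF in 3 and 2 of these groups, and lower in 0. With each library's trend on GC content and transcript length removed, it was called higher in 0 and lower in 2 and 3. Its level was 120, 101 and 141 CPM in iPS SSEA1+ cells and 120, 144 and 164 CPM in iPS SSEA1- cells, against 147, 117 and 117 CPM in MEF, and these groups overlapped. Per transcript length, Cox6b2 made up 34.7 ± 4.09% of the pair's summed level in d6 SSEA1+ cells and 46.4 ± 6.77% in iPS SSEA1+ cells, against 4.90 ± 2.71% in MEF (mean ± SD, n = 3). With lengths of the union of exons instead, chosen after seeing the data, the iPS SSEA1+ share was 34.5% and the MEF share 3.04%. SSEA1- cells had 41.3 ± 4.13% at d12 and 28.3 ± 6.76% at the iPS stage. Germ cell markers (6 genes) had a summed level of 314 to 552 CPM in iPS SSEA1+ libraries, against 1.67 to 4.09 CPM in MEF. At d6, where Cox6b2 had already risen, they summed to 3.44 to 10.7 CPM in SSEA1+ and 3.75 to 9.27 CPM in SSEA1- libraries. Their part in the Cox6b2 level was not tested.

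**Figure D1:**
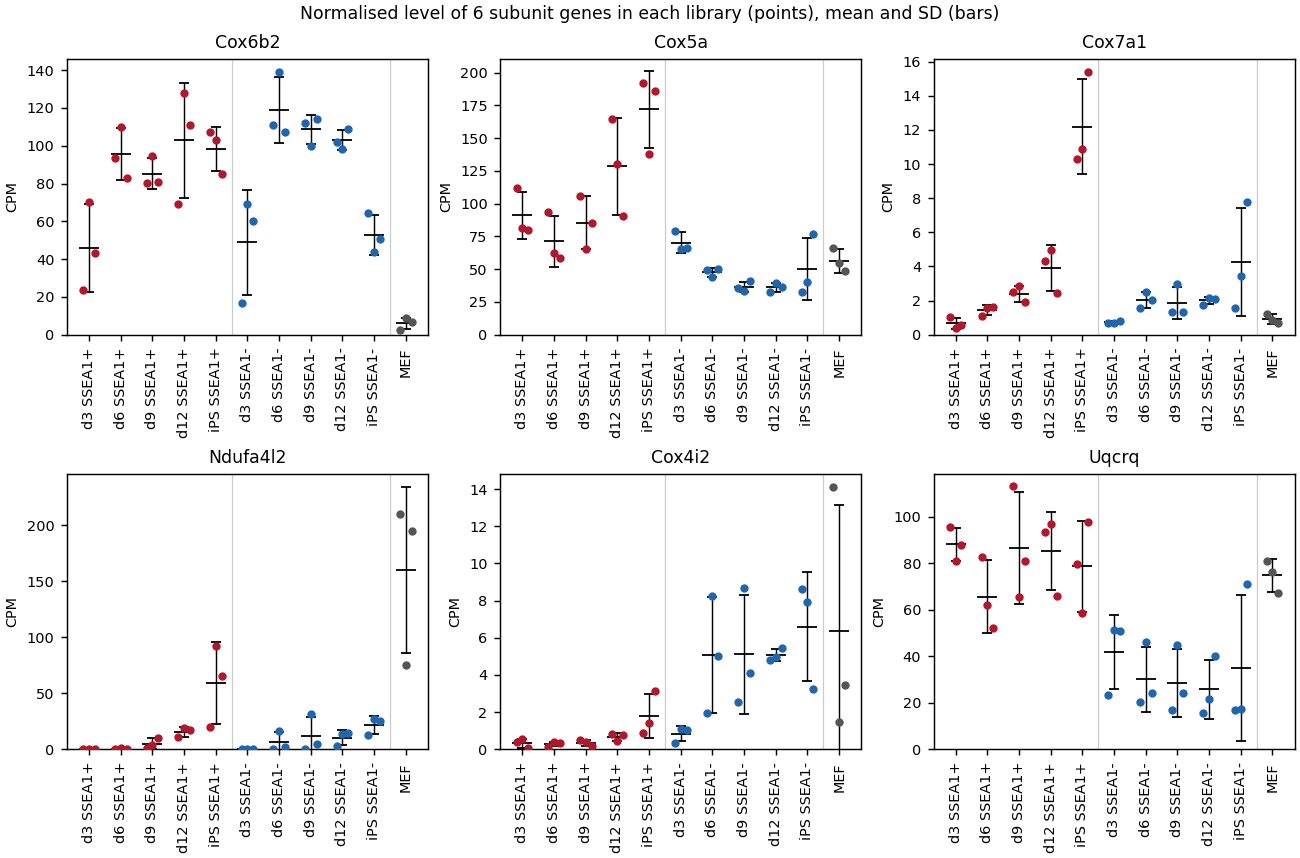
Level of 6 subunits in each library (points, CPM), with the mean and SD of each group of 3; SSEA1+ groups are red, SSEA1- groups blue and MEF grey. Cox6b2 lies above MEF in every later library, Ndufa4l2 lies below every MEF library in all later libraries except iPS SSEA1+ replicate 2 (92.4 CPM, against 75.3 CPM in the lowest MEF library), and Cox5a and Uqcrq lie higher in SSEA1+ than in SSEA1- cells at d9 and d12.

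Ndufa4l2, a paralogue of Ndufa4 induced by low oxygen, was close to 0 at d3. The d3 SSEA1+ libraries had 0.0748, 0.0663 and 0 CPM and the d3 SSEA1- libraries 0, 0.116 and 0.101 CPM, against 210, 75.3 and 195 CPM in MEF. Later SSEA1+ libraries had 0.0997, 1.07 and 0.37 CPM at d6, 1.04, 4.1 and 10.1 CPM at d9, 10.9, 19.4 and 17.2 CPM at d12 and 19.5, 92.4 and 65.4 CPM at the iPS stage. Of these, only iPS SSEA1+ replicate 2 came within the MEF range, and no step from one stage to the next passed the test. Ndufa4l2 fell by 11.53 ± 1.79 on the log2 scale in d3 SSEA1+ cells (adjusted p = 1e-05), by 3.34 ± 1.09 at d12 (adjusted p = 0.01), and stood at -1.44 ± 1.01 in iPS SSEA1+ cells (adjusted p = 0.22). At d3 the fitted size rests on 2, 1 and 0 counts in the SSEA1+ libraries and is not a bound.

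In SSEA1- cells Ndufa4l2 had 0.27, 16.5 and 2.49 CPM at d6 and 12.5, 26.8 and 25.4 CPM at the iPS stage. It fell by 10.93 ± 1.67 at d3 (adjusted p = 1.2e-05) and by 3.95 ± 1.12 at d12 (adjusted p = 0.0068). At the iPS stage it fell by 2.89 ± 1.07 (adjusted p = 0.034), a call that ended without MEF replicate 1 (-2.72, adjusted p = 0.073), MEF replicate 3 (-2.77, 0.069) or any 1 of iPS SSEA1- replicates 1 (-2.62, 0.11), 2 (-3.08, 0.067) and 3 (-3.03, 0.062). Ndufa4, now assigned to complex IV, went the other way: 153, 132 and 117 CPM in d3 SSEA1+ cells and 210, 211 and 241 CPM in d3 SSEA1- cells, against 90.4, 67.6 and 60.4 CPM in MEF. It rose by 0.88 ± 0.23 in d3 SSEA1+ cells (adjusted p = 0.0027) and by 1.60 ± 0.23 in d3 SSEA1- cells (adjusted p = 7.3e-06). Ndufa4l2 thus made up 36.6 ± 20.6% of the pair in iPS SSEA1+ cells and 0.041 ± 0.0355% in d3 SSEA1+ cells, against 70.8 ± 11.4% in MEF. Shmt2 overlaps Ndufa4l2 by 32 bases on the other strand. How reads of that stretch were assigned is not given, since only the file names speak of how strand was treated in counting.

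Genes that cells switch on in low oxygen also fell at d3. Of 10 hypoxia response genes, 9 fell in d3 SSEA1+ cells and 9 in d3 SSEA1- cells (median log2 change -2.61 and -2.33, against 0.09 and 0.07 over all genes tested), and 0 rose. Of all genes, 21.1% and 19.6% fell in these groups. The summed level of the 10 genes in SSEA1+ libraries was 1160 to 1772 CPM at d3 and 864 to 1204 CPM at d6. In iPS SSEA1+ cells 3 fell and 1 rose (median -0.54), against 28.6% and 35.7% of all genes (median 0.22). Bnip3, a mitophagy receptor, had 12.1, 13.9 and 14.4 CPM in d3 SSEA1+ cells and 16.2, 23.1 and 22.1 CPM in d3 SSEA1- cells, against 340, 151 and 225 CPM in MEF, with no overlap. Bnip3 fell by 4.15 ± 0.38 in d3 SSEA1+ cells (adjusted p = 6e-09), and Pdk1, a kinase that inhibits pyruvate dehydrogenase, fell by 1.93 ± 0.25 (adjusted p = 8.6e-07).

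Cox4i2, the lung isoform of subunit 4, was low in SSEA1+ cells at every stage. Its level was 0.374, 0.53 and 0.0512 CPM at d3, 0.149, 0.374 and 0.317 CPM at d6, 0.497, 0.369 and 0.191 CPM at d9, 0.837, 0.425 and 0.746 CPM at d12 and 0.903, 1.39 and 3.15 CPM at the iPS stage, against 14.1, 1.49 and 3.48 CPM in MEF. All SSEA1+ libraries up to d12 lay below MEF, MEF replicate 1 stood far above the other MEF libraries, and the iPS SSEA1+ libraries overlapped MEF. Cox4i2 fell by 4.33 ± 0.82 in d3 SSEA1+ cells (adjusted p = 0.00011) and by 3.25 ± 0.75 in d12 SSEA1+ cells (adjusted p = 0.00064). The fall in iPS SSEA1+ cells (1.82 ± 0.71 on the log2 scale, adjusted p = 0.027) ended without MEF replicate 1 (-0.48, adjusted p = 0.57), iPS SSEA1+ replicate 1 (-1.50, 0.11) or iPS SSEA1+ replicate 2 (-1.66, 0.085).

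Between the fractions Cox4i2 was lower in SSEA1+ cells from d6 on. SSEA1- cells had 1.97, 8.25 and 5.0 CPM at d6, 2.53, 8.7 and 4.11 CPM at d9, 4.8, 4.97 and 5.46 CPM at d12 and 8.61, 7.93 and 3.24 CPM at the iPS stage. The lowest SSEA1- library stayed above the highest SSEA1+ library of its stage at each of them. SSEA1+ over SSEA1-, the log2 change was -4.16 ± 0.82 at d6 (adjusted p = 0.0006), -3.83 ± 0.79 at d9 (adjusted p = 0.00053), -2.91 ± 0.74 at d12 (adjusted p = 0.0022) and -1.86 ± 0.71 at the iPS stage (adjusted p = 0.03). The iPS call ended without any 1 of replicates 1 and 2 of either fraction (-1.70 to -1.53). Without iPS SSEA1- replicate 3 it was -2.18 (adjusted p = 0.015). Cox4i2 made up 3.31 ± 2.09% of its pair with Cox4i1 in iPS SSEA1- cells, or 6.02 ± 3.75% with lengths of the union of exons, chosen after seeing the data.

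Cox7a1, the heart and muscle isoform of subunit 7a, rose late in SSEA1+ cells. It had 1.05, 0.398 and 0.563 CPM at d3, 1.1, 1.55 and 1.64 CPM at d6, 2.49, 2.83 and 1.91 CPM at d9, 4.33, 4.97 and 2.43 CPM at d12 and 10.3, 10.9 and 15.4 CPM at the iPS stage, against 1.22, 0.837 and 0.696 CPM in MEF. From d9 on no SSEA1+ library overlapped MEF. Cox7a1 rose over MEF by 2.05 ± 0.48 at d12 (adjusted p = 0.00065) and by 3.69 ± 0.50 in iPS SSEA1+ cells (adjusted p = 5.7e-07), and over d12 SSEA1+ cells by 1.64 ± 0.44 in iPS SSEA1+ cells (adjusted p = 0.014). That last call ended without d12 SSEA1+ replicate 3 (1.39, adjusted p = 0.099) or iPS SSEA1+ replicate 3 (1.44, 0.064). It was also higher in iPS SSEA1+ cells than in iPS SSEA1- cells, with 1.58, 3.43 and 7.75 CPM in iPS SSEA1- cells, by 1.52 ± 0.44 (adjusted p = 0.006), and by 2.29 without iPS SSEA1- replicate 3 (adjusted p = 0.00018). Its share of the pair with Cox7a2 was 14.5 ± 2.81% in iPS SSEA1+ cells, against 2.12 ± 0.0679% in MEF. Muscle markers (12 genes) in SSEA1+ libraries summed to 3.32 to 5.27 CPM at d3, 7.39 to 14.4 CPM at d6, 10.5 to 17.7 CPM at d9, 26.3 to 54.3 CPM at d12 and 60.2 to 98.1 CPM at the iPS stage, against 93.0 to 387 CPM in MEF. Of the 9 tested, 4 were higher and 3 lower in iPS SSEA1+ cells than in MEF (median 1.80). Of all genes, 35.7% were higher and 28.6% lower there (median 0.22). Over d12 SSEA1+ cells, Myog, a regulator of muscle differentiation, rose by 4.28 ± 1.15 in iPS SSEA1+ cells (adjusted p = 0.015), and Ttn, which encodes titin, by 2.38 ± 0.71 (adjusted p = 0.026; 1.23 once each library's trend on GC content and transcript length was removed, adjusted p = 0.25). Their part in the Cox7a1 level was not tested. The other muscle isoform, Cox6a2, was at 0.525 CPM or less in every library after MEF, against 1.16, 0.93 and 0.557 CPM in MEF. In d6 SSEA1+ cells, with 0 counts in all libraries, Cox6a2 was at least 18.6-fold lower than in MEF, taking 3 counts over the group as the floor.

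Cox7b2, the paralogue of subunit 7b known from testis, had its first counts in d9 SSEA1+ cells. Cox7b2 had 0 counts in all libraries of d3, d6 and d9 SSEA1- cells, of d3 and d6 SSEA1+ cells and of MEF, and 2.98, 2.64 and 1.73 CPM at d12 and 3.88, 3.96 and 0.997 CPM at the iPS stage in SSEA1+ cells. SSEA1- cells had 0, 0.516 and 0.157 CPM at d12 and 0.274, 0.482 and 2.79 CPM at the iPS stage, where replicate 3 again stood apart. Against the floor of 3 counts over the MEF group (0.0853 CPM), Cox7b2 was at least 29.3-fold higher in d12 SSEA1+ cells (adjusted p = 0.002) and at least 34.2-fold higher in iPS SSEA1+ cells (adjusted p = 0.0014). It was higher in d12 SSEA1+ cells than in d12 SSEA1- cells by 3.41 ± 1.11 (adjusted p = 0.02), a call that ended without d12 SSEA1- replicate 1 (2.83) or replicate 3 (3.22). Its share of the pair with Cox7b stayed at 2.82 ± 0.121% in d12 SSEA1+ cells.

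**Figure D2:**
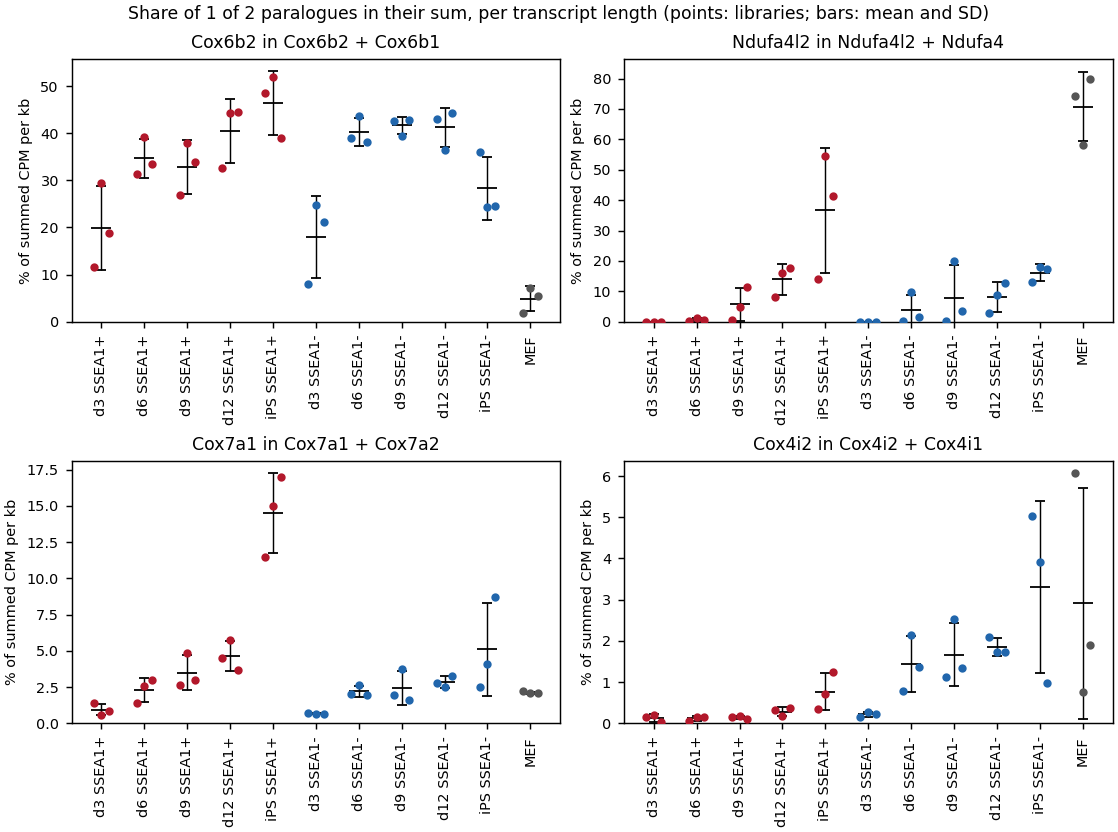
Share of 1 paralogue in the summed level of its pair (percent of CPM per kilobase of transcript, mean and SD of 3 libraries) by group, for Cox6b2, Ndufa4l2, Cox7a1 and Cox4i2. The Cox6b2 share is 46.4% in iPS SSEA1+ cells and 4.90% in MEF, and the Ndufa4l2 share 36.6% in iPS SSEA1+ cells and 70.8% in MEF.

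Across the whole chain, more members rose than fell against MEF in all 10 groups on counts as deposited. In d3 SSEA1- cells 39 of 66 members rose and 4 fell, against 24.5% and 19.6% of all 17326 genes tested, with a median log2 change of 0.79 for the members and 0.07 for all genes. In d3 SSEA1+ cells 27 rose and 4 fell, against 25.2% and 21.1% of all genes (median 0.51, against 0.09). The members that fell were the same in both: Ndufa4l2, Cox4i2, Cox6a2 and Ndufv3.

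At later stages SSEA1+ cells had 23 members up and 4 down at d6 (26.2% and 21.5% of all genes), 27 and 3 at d9 (29.5% and 23.4%), 29 and 3 at d12 (34.8% and 26.4%) and 25 and 1 at the iPS stage (35.7% and 28.6%). SSEA1- cells had 32 up and 3 down at d6 (23.2% and 18.2% of all genes), 25 and 3 at d9 (20.9% and 17.8%), 20 and 5 at d12 (22.2% and 18.4%) and 20 and 2 at the iPS stage (24.0% and 14.5%). Member medians ran from 0.42 at d6 to 0.58 at d9 in SSEA1+ cells after d3, and from 0.65 at d6 to 0.25 at the iPS stage in SSEA1- cells. The medians of all genes were 0.17 to 0.26 and 0.09 to 0.19. Single libraries mattered: leaving out MEF replicate 3 left 20 called members in d3 SSEA1+ cells, 17 at d6, 19 at d9 and 20 at d12, and 18 and 13 in d9 and d12 SSEA1- cells. Without d6 SSEA1+ replicate 1 there were 16 at d6, and without d9 SSEA1+ replicate 1 there were 14 at d9. For d12 SSEA1+ cells the count was 19 without MEF replicate 2 and 21 without d12 SSEA1+ replicate 1 or 2, and for d12 SSEA1- cells 13 without replicate 2.

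At 2-fold or more, 26 members rose and 3 fell in d3 SSEA1- cells (15.3% and 14.9% of all genes), and 7 rose and 4 fell in d3 SSEA1+ cells (15.6% and 16.7%). In SSEA1+ cells the counts were 1 up and 3 down at d6 (16.9% and 16.6% of all genes), 4 and 3 at d9 (20.6% and 18%), 8 and 3 at d12 (26.5% and 20.2%) and 7 and 1 at the iPS stage (27.9% and 22.5%). In SSEA1- cells they were 18 up and 3 down at d6 (15.8% and 12.4%), 8 and 3 at d9 (14.9% and 11.6%), 4 and 3 at d12 (17.0% and 11.1%) and 6 and 1 at the iPS stage (19.1% and 7.7%). In SSEA1+ cells the members past 2-fold were therefore a smaller share than among all genes at every stage, in both directions. Those past it in iPS SSEA1+ cells were Cox6b2, Cox7a1, Cox7b2, Cox5a, Cox7b, the accessory subunits Ndufa1 and Ndufa7 of complex I, and, downward, Cox4i2.

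The members' transcripts are short, with a median length of 988 bases against 3152 bases over all genes with a known length, and read counts followed length and GC content differently in each library. The smooth trend on both put the members at a median of up to 0.422 (log2) in iPS SSEA1- libraries, against -0.505 to -0.364 in MEF libraries. With that trend removed from each library, the split became 26 up and 5 down in d3 SSEA1+ cells, 20 and 5 at d6, 15 and 6 at d9, 8 and 19 at d12 and 10 and 22 at the iPS stage. The shares of all genes then called up and down were 28.9% and 21.6% at d3, 29.1% and 22.8% at d6, 29.4% and 26.6% at d9, 30.4% and 32.4% at d12 and 32.7% and 34.5% at the iPS stage. In SSEA1- cells the split became 27 up and 5 down at d3, 16 and 6 at d6, 7 and 13 at d9, 6 and 18 at d12 and 4 and 28 at the iPS stage, where all genes had 22.9% and 18.2% at d3, 17.7% and 20.5% at d6, 16.1% and 22.7% at d9, 16.9% and 27.4% at d12 and 16.5% and 32.3% at the iPS stage. More members rose than fell at d3 and d6 with and without the trend, and with it removed more fell than rose from d12 on in SSEA1+ cells and from d9 on in SSEA1- cells. The balance of all genes turned downward at d12 and at d6 in these fractions. Of the members called higher as deposited, 22 of 27 were also called higher with the trend removed in d3 SSEA1+ cells, 25 of 39 in d3 SSEA1- cells, 9 of 25 in iPS SSEA1+ cells and 4 of 20 in iPS SSEA1- cells. What the trend comes from was not tested.

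**Figure D3:**
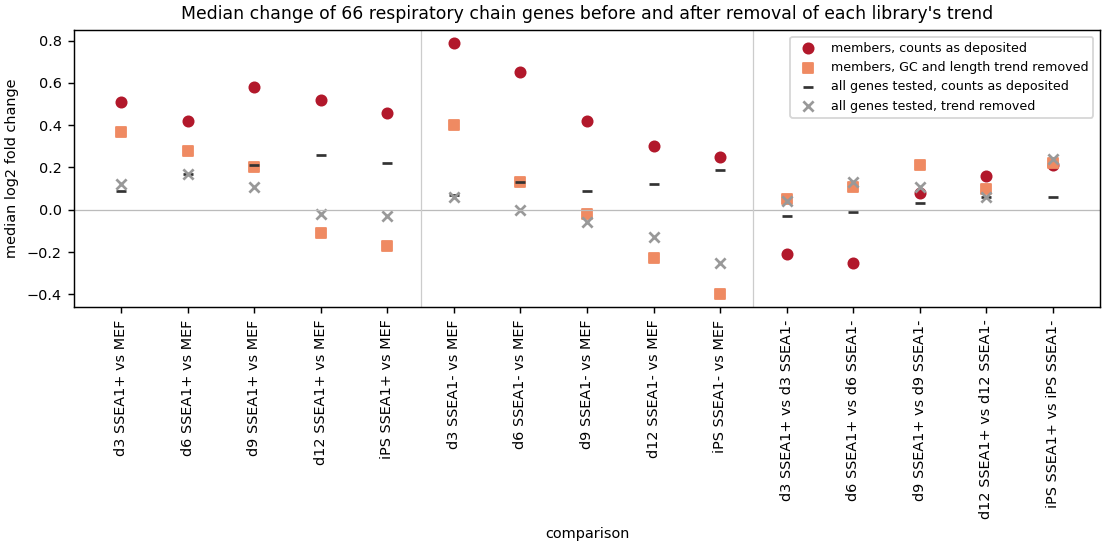
Median log2 fold change of the 66 tested members and of all genes tested in 15 comparisons, from counts as deposited and with each library's trend on GC content and length removed. The member median over MEF is 0.79 as deposited and 0.40 with the trend removed in d3 SSEA1- cells, and 0.25 and -0.40 in iPS SSEA1- cells.

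The mean summed level of each complex was higher at d3 than in MEF. Complex I members summed to 2420 ± 180 CPM in d3 SSEA1+ cells and 2835 ± 531 CPM in d3 SSEA1- cells, against 1719 ± 226 CPM in MEF (mean ± SD, n = 3). Complex II summed to 674 ± 65.7 and 745 ± 36.8 CPM in these groups, against 485 ± 81.5 CPM in MEF. Complex III summed to 1126 ± 109 CPM in d3 SSEA1+ and 1221 ± 189 CPM in d3 SSEA1- cells, against 696 ± 105 CPM in MEF, and complex IV to 1668 ± 53.2 CPM and 2105 ± 440 CPM, against 1323 ± 191 CPM in MEF. By complex, 23 of 36 members of complex I rose in d3 SSEA1- cells, 2 of 4 of complex II, 5 of 8 of complex III and 9 of 18 of complex IV, with medians of 0.76, 0.67, 1.12 and 0.65, against 24.5% of all genes. In iPS SSEA1+ cells the medians were 0.41, 0.28, 0.51 and 0.67, and 11 of 18 complex IV members rose, against 9 of 36 of complex I and 35.7% of all genes. Of the 25 members called higher there, 9 were also called higher with the trend removed. They were Cox5a, Cox6b2, Cox6c, Cox7a1, Cox7b and Cox7b2 of complex IV, Ndufab1 and Ndufb5 of complex I, and Uqcrc2 of complex III.

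**Figure D4:**
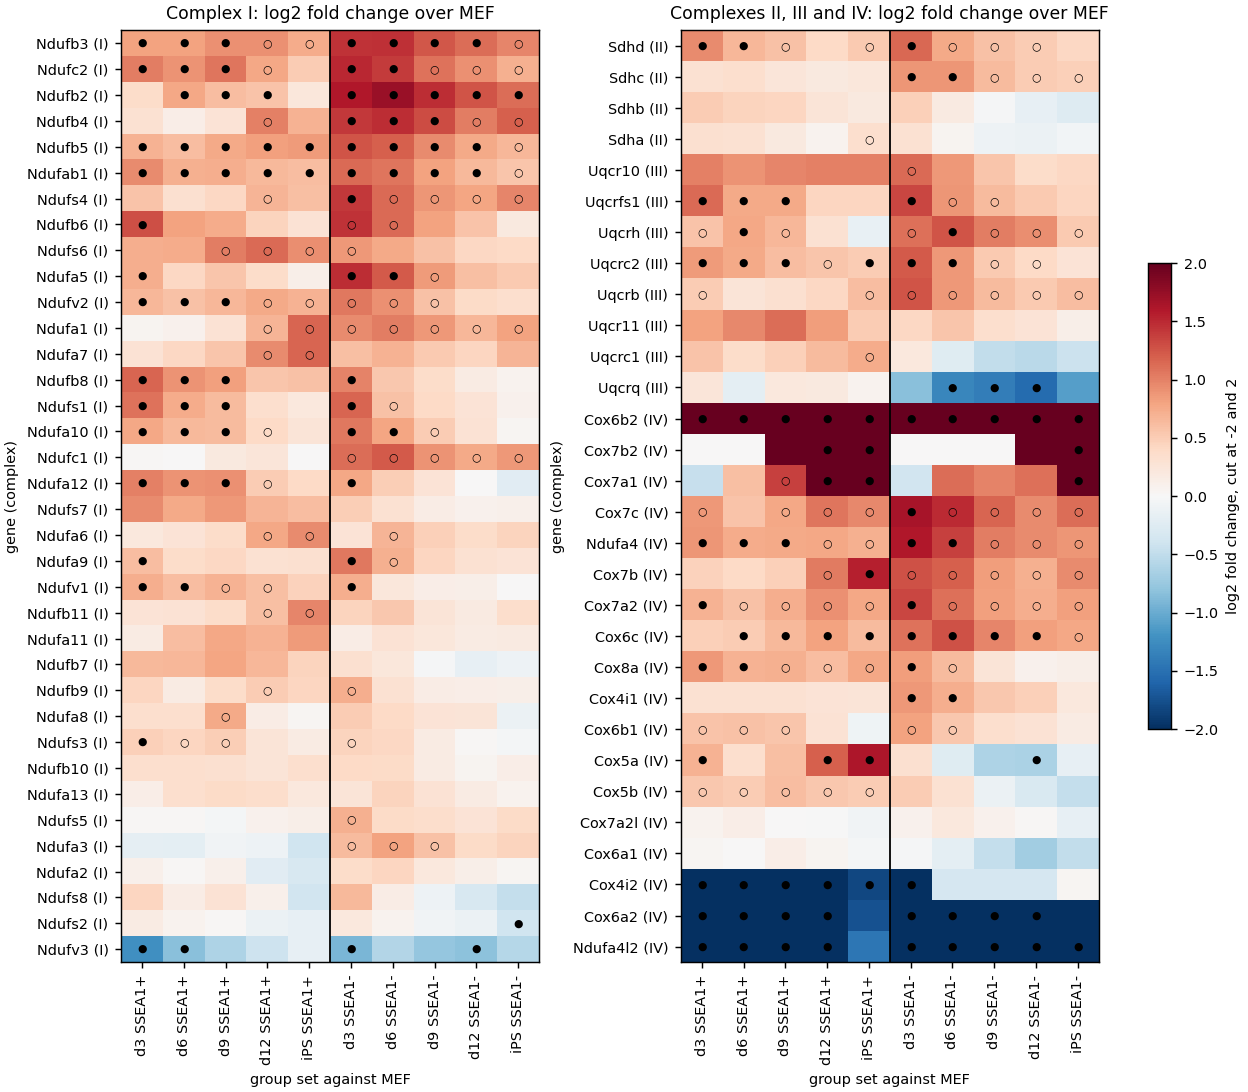
Log2 fold change over MEF of the 66 tested members (rows, by complex) in 5 SSEA1+ and 5 SSEA1- groups (columns). Colours are cut at -2 and 2. Filled dots mark members called in the same direction with and without removal of the GC and length trend. Open dots mark the other members called on counts as deposited. Of these, Uqcrb in iPS SSEA1- cells was called lower with the trend removed. Cox6b2 is red in all 10 columns, and open dots prevail at d12 and the iPS stage.

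Within complex I, the electron-carrying core subunit Ndufs1 rose at d3. It had 208, 177 and 159 CPM in d3 SSEA1+ cells and 239, 173 and 162 CPM in d3 SSEA1- cells, against 100, 88.2 and 68.3 CPM in MEF, with no overlap. By the iPS stage it had 103, 90.3 and 105 CPM in SSEA1+ and 85.9, 91.1 and 96.0 CPM in SSEA1- cells, overlapping MEF. Ndufs1 rose by 1.08 ± 0.19 in d3 SSEA1+ cells (adjusted p = 4.6e-05) and by 1.16 ± 0.19 in d3 SSEA1- cells (adjusted p = 2.7e-05), and by 1.03 and 0.78 with the trend removed, and it stood at 0.21 ± 0.19 in iPS SSEA1+ cells (adjusted p = 0.32).

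The acyl carrier protein Ndufab1, an accessory subunit of complex I that also serves mitochondrial fatty acid synthesis, rose in SSEA1+ cells at every stage. Its level was 34.3, 35.2 and 31.4 CPM in d3 SSEA1+ cells and 31.4, 26.6 and 22.3 CPM in iPS SSEA1+ cells, against 19.6, 17.7 and 15.2 CPM in MEF, and the groups did not overlap. Its log2 change over MEF was 0.61 to 0.94 in the 5 SSEA1+ groups. It was called in all 5 with the trend removed as well, as was the accessory subunit Ndufb5, at 0.62 to 0.85. The exons of Ndufb5 overlap Mrpl47 by 616 bases on the other strand.

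Ndufv3, an accessory subunit of the NADH-binding arm of complex I, ran against the rest. It had 32.3, 40.2 and 40.6 CPM in d3 SSEA1+ cells and 25.6, 56.2 and 59.8 CPM in d3 SSEA1- cells, against 99.7, 78.1 and 88.4 CPM in MEF, with no overlap. Ndufv3 fell by 1.23 ± 0.32 in d3 SSEA1+ cells (adjusted p = 0.0027) and by 0.91 ± 0.32 in d3 SSEA1- cells (adjusted p = 0.023), the second call ending without d3 SSEA1- replicate 1 (-0.61). The iPS SSEA1+ libraries had 60.3, 86.0 and 91.6 CPM and overlapped MEF.

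Members of complexes II and III rose at d3 as well. Sdhd, a membrane anchor of complex II, had 188, 132 and 127 CPM in d3 SSEA1+ and 184, 158 and 174 CPM in d3 SSEA1- cells, against 93.2, 71.8 and 66.4 CPM in MEF. It rose by 0.95 ± 0.20 in d3 SSEA1+ cells (adjusted p = 0.00037) and by 1.15 ± 0.20 in d3 SSEA1- cells (adjusted p = 5.9e-05). Uqcrfs1, the Rieske iron-sulfur protein of complex III, had 165, 122 and 105 CPM in d3 SSEA1+ and 154, 137 and 159 CPM in d3 SSEA1- cells, against 73.3, 58.3 and 47.2 CPM in MEF. It rose by 1.13 ± 0.24 in d3 SSEA1+ cells (adjusted p = 0.00033) and by 1.33 ± 0.24 in d3 SSEA1- cells (adjusted p = 7.5e-05), and neither gene's d3 libraries overlapped MEF.

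Between the fractions of one stage, the split of calls depended on the trend with GC content and length. On counts as deposited, at d3 0 of 66 members were higher and 14 lower in SSEA1+ than in SSEA1- cells, against 5.57% and 6.33% of all genes (median log2 change -0.21). At d6, 0 were higher and 18 lower (12.7% and 14.4% of all genes, median -0.25). The counts of 0 are those of edgeR's test; DESeq2 called 0 members higher at d3 and 1 at d6, and 22 and 23 members had an unadjusted p under 0.05 in either direction. At d9 5 were higher and 5 lower (20.1% and 18.7% of all genes), at d12 6 and 3 (26.9% and 23.6%) and at the iPS stage 10 and 5 (25.4% and 27.0%). From d9 on, these member shares were below those of all genes. Past 2-fold, 0 members were higher and 3 lower at d3 (2.76% and 3.91% of all genes), 0 and 4 at d6 (6.31% and 10.1%), 2 and 2 at d9 (11.5% and 13.7%), 4 and 1 at d12 (18% and 18%) and 4 and 1 at the iPS stage (16.0% and 21.3%). With the trend on GC content and length removed, more members were higher than lower at every stage: 4 and 3 at d3 (3.59% and 3.69% of all genes), 13 and 6 at d6 (19.0% and 10.9%), 15 and 5 at d9 (25.1% and 17.8%), 11 and 4 at d12 (29.3% and 25.2%) and 19 and 7 at the iPS stage (34.9% and 24.8%). All genes leaned upward as well from d6 on.

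Of the 14 lower at d3, only Ndufa3 and Ndufb2 were also called with the trend removed, and single libraries moved the d3 count to 3 without d3 SSEA1- replicate 2 or 3 or d3 SSEA1+ replicate 2, to 7 without d3 SSEA1+ replicate 1 and to 1 without d3 SSEA1+ replicate 3. At d6 the count was 8 without d6 SSEA1- replicate 2, 10 without d6 SSEA1- replicate 3 or d6 SSEA1+ replicate 2, and 7 without d6 SSEA1+ replicate 3. At the iPS stage, leaving out iPS SSEA1- replicate 3 gave 29 called members, 24 of them higher in SSEA1+ cells, and leaving out iPS SSEA1- replicate 1 or 2 or iPS SSEA1+ replicate 1 gave 9.

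Cox5a, a nuclear subunit of complex IV next to its catalytic core, was higher in SSEA1+ than in SSEA1- cells from d9 on. In SSEA1+ cells it had 112, 81.6 and 80.2 CPM at d3, 93.9, 62.1 and 58.3 CPM at d6, 106, 65.2 and 85.2 CPM at d9, 165, 130 and 90.7 CPM at d12 and 192, 138 and 186 CPM at the iPS stage. SSEA1- cells had 79.5, 65.2 and 66.2 CPM at d3, 49.5, 43.7 and 50.1 CPM at d6, 35.8, 33.2 and 40.8 CPM at d9, 32.4, 39.6 and 36.2 CPM at d12 and 32.9, 40.0 and 76.8 CPM at the iPS stage, and MEF had 66, 54.5 and 48.3 CPM. The fractions did not overlap at any stage, and the highest iPS SSEA1- library was replicate 3. SSEA1+ over SSEA1-, the log2 change was 0.38 ± 0.26 at d3 (adjusted p = 0.37), 0.58 ± 0.26 at d6 (adjusted p = 0.095), 1.22 ± 0.26 at d9 (adjusted p = 0.00077), 1.83 ± 0.26 at d12 (adjusted p = 6e-06) and 1.78 ± 0.26 at the iPS stage (adjusted p = 5.4e-06). With the trend removed it was 0.92, 1.22, 1.67, 1.98 and 2.23 from d3 to the iPS stage, and all 5 passed. The calls at d9, d12 and the iPS stage held with each library left out in turn.

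The Cox5a difference itself grew between d3 and d12, by 1.45 ± 0.37 (interaction test, adjusted p = 0.0084; 1.06 with the trend removed, adjusted p = 0.028). Between d12 and the iPS stage the change in that difference was -0.05 ± 0.36 (adjusted p = 0.98). Against MEF, Cox5a rose by 1.19 ± 0.26 in d12 SSEA1+ cells (adjusted p = 0.00036) and by 1.61 ± 0.26 in iPS SSEA1+ cells (adjusted p = 9.2e-06). In d12 SSEA1- cells it fell by 0.64 ± 0.26 (adjusted p = 0.049), a call that ended without MEF replicate 1 (-0.58) or any 1 of d12 SSEA1- replicates 1 (-0.57), 2 (-0.71) and 3 (-0.65), and was -1.18 with the trend removed. The rise over MEF in d3 SSEA1+ cells (0.70 ± 0.26, adjusted p = 0.029) ended with RLE size factors (0.51, adjusted p = 0.087) and without MEF replicate 2 (0.57), MEF replicate 3 (0.50) or d3 SSEA1+ replicate 1 (0.52).

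Over the 66 members, 2 showed a difference between the fractions that changed from d3 to d12, both upward (8.65% of all genes upward and 9.06% downward) and both past 2-fold (6.21% and 7.93%). The other was Cox7b, the general form of subunit 7b, by 1.14 ± 0.39 (adjusted p = 0.046), with 198, 160 and 110 CPM in d12 SSEA1+ cells and 101, 162 and 110 CPM in d12 SSEA1- cells. At d3 it had 111, 108 and 96.1 CPM in SSEA1+ cells and 165, 169 and 220 CPM in SSEA1- cells, so that the fractions were apart at d3 and overlapped at d12. This call ended with the trend removed (0.65, adjusted p = 0.14) and without any 1 of 10 of the 12 libraries (0.93 to 1.22). Between d12 and the iPS stage 0 members passed in edgeR's test, in which 0.439% of all genes changed upward and 1.49% downward (0.41% and 1.44% past 2-fold), with 0 members at an unadjusted p under 0.05 and 0 in DESeq2. Cox7b is 1 of 3 X-linked members, with Ndufa1 and Ndufb11. Their median change over MEF in iPS SSEA1+ cells was 1.17, against 0.43 for the 63 autosomal members. In iPS SSEA1- cells it was 0.81, against 0.19, and the X-linked median was the higher one in every SSEA1- group. In SSEA1+ cells it was the lower one at d3 (0.27, against 0.54), d6 and d9, and the higher one at d12 (0.68, against 0.51).

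**Figure D5:**
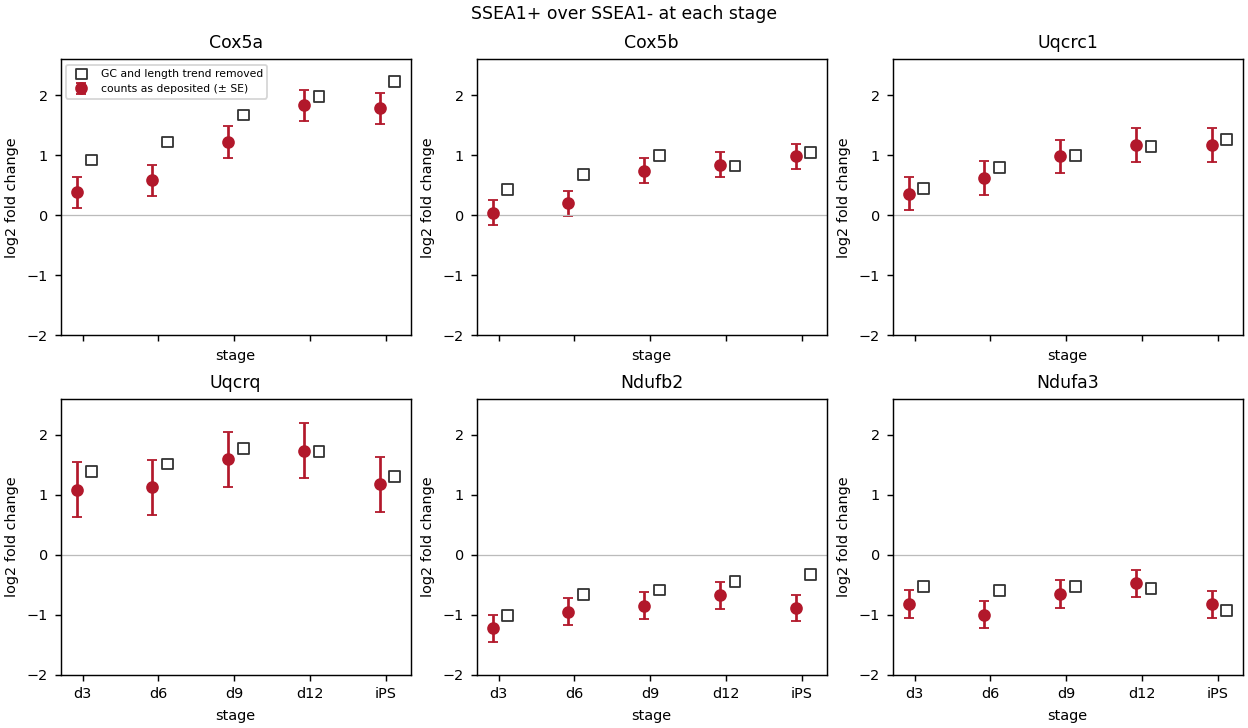
Log2 fold change ± standard error of SSEA1+ over SSEA1- cells at each stage for 6 members (circles), with values after removal of the GC and length trend (squares). Cox5a goes through 0.38 at d3, 0.58 at d6, 1.22 at d9, 1.83 at d12 and 1.78 at the iPS stage, while Ndufb2 and Ndufa3 stay below 0.

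Cox5b, another nuclear subunit beside the complex IV core, was higher in SSEA1+ than in SSEA1- cells from d9 on. It had 126, 139 and 116 CPM in d12 SSEA1+ cells and 60.0, 87.1 and 65.4 CPM in d12 SSEA1- cells. At the iPS stage it had 135, 117 and 121 CPM in SSEA1+ and 40.4, 69.3 and 78.8 CPM in SSEA1- cells, and the fractions did not overlap at either stage. Cox5b was higher in SSEA1+ cells by 0.74 ± 0.21 at d9 (adjusted p = 0.0065), by 0.84 ± 0.21 at d12 (adjusted p = 0.0017) and by 0.98 ± 0.21 at the iPS stage (adjusted p = 0.00039; 1.18 without iPS SSEA1- replicate 3).

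In complex III, Uqcrc1, a core protein of the matrix side, followed the same order. Uqcrc1 had 351, 324 and 227 CPM in d12 SSEA1+ and 106, 125 and 168 CPM in d12 SSEA1- cells, with no overlap. It was higher in SSEA1+ cells by 0.98 ± 0.28 at d9 (adjusted p = 0.0076), by 1.17 ± 0.28 at d12 (adjusted p = 0.0012) and by 1.17 ± 0.28 at the iPS stage (adjusted p = 0.0013; 1.75 without iPS SSEA1- replicate 3).

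Uqcrq, a small accessory subunit of complex III, had 93.4, 96.7 and 66.1 CPM in d12 SSEA1+ and 15.6, 21.7 and 39.9 CPM in d12 SSEA1- cells, against 80.9, 76.2 and 67.1 CPM in MEF. The SSEA1- libraries lay below both other groups. It was higher in SSEA1+ cells by 1.59 ± 0.46 at d9 (adjusted p = 0.0084), by 1.73 ± 0.46 at d12 (adjusted p = 0.0032) and by 1.17 ± 0.46 at the iPS stage (adjusted p = 0.035; 2.21 without iPS SSEA1- replicate 3). The d9 call ended without d9 SSEA1- replicate 1 (1.32), and the iPS call without iPS SSEA1- replicate 1 (0.83) or 2 (0.84) or iPS SSEA1+ replicate 1 (1.16) or 3 (0.98). Against MEF, Uqcrq fell in SSEA1- cells by 1.31 ± 0.46 at d6 (adjusted p = 0.024), by 1.38 ± 0.46 at d9 (adjusted p = 0.02) and by 1.54 ± 0.46 at d12 (adjusted p = 0.01). Each of these calls ended without replicate 1 of its SSEA1- group (-1.09, -1.11 and -1.28 from d6 to d12), and those of d6 and d9 also without replicate 3 (-1.17 and -1.27).

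Both complex I accessory subunits Ndufb2 and Ndufa3 ran the other way. Ndufb2 had 5.46, 6.63 and 5.01 CPM in d3 SSEA1+ and 12.9, 12.9 and 14.4 CPM in d3 SSEA1- cells, and 6.69, 5.01 and 3.88 CPM in iPS SSEA1+ and 9.09, 11.1 and 8.68 CPM in iPS SSEA1- cells, against 5.64, 3.63 and 3.9 CPM in MEF. The SSEA1- libraries were the highest at each of these stages. SSEA1+ over SSEA1-, the log2 change of Ndufb2 was -1.23 ± 0.22 at d3 (adjusted p = 0.0011) and -0.68 ± 0.22 at d12 (adjusted p = 0.013), the extremes of the 5 stages. It passed at all 5 stages, at d12 not without d12 SSEA1- replicate 2 (-0.58), and with the trend removed not at d12 (-0.45) or the iPS stage (-0.33). Braf overlaps Ndufb2 by 146 bases on the other strand, and how reads of that stretch were assigned is not given. Ndufa3 had 34.8, 33.2 and 27.3 CPM in d3 SSEA1+ and 45.2, 63.7 and 59.3 CPM in d3 SSEA1- cells. The groups did not overlap. SSEA1+ over SSEA1-, its log2 change was -0.82 ± 0.23 at d3 (adjusted p = 0.018) and -1.0 ± 0.23 at d6 (adjusted p = 0.0022), the d3 call ending without d3 SSEA1- replicate 2 (-0.72) or d3 SSEA1+ replicate 3 (-0.72).

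From stage to stage within SSEA1+ cells few members changed. In edgeR's test 0 members changed from d3 to d6 (3.45% of all genes up and 1.81% down, 3.21% and 1.25% past 2-fold) and 0 from d6 to d9 (1.01% and 0.121%, 0.998% and 0.0808% past 2-fold), with 2 and 1 members at an unadjusted p under 0.05 and 0 in DESeq2 for both. From d9 to d12 only Cox7b2 rose (6.37% of all genes up and 5.47% down, 5.37% and 3.45% past 2-fold), by a fitted 5.26 ± 1.31 (adjusted p = 0.019) on 0, 0.041 and 0.144 CPM at d9, and the call ended without d9 SSEA1+ replicate 1 (4.69) or 2 (5.05) or d12 SSEA1+ replicate 1 (5.09). From d12 to the iPS stage only Cox7a1 rose, as given above (5.17% of all genes up and 7.87% down, 3.74% and 5.75% past 2-fold). With the trend removed, 9 members fell and 1 rose from d9 to d12 (11.8% and 6.42% of all genes), and 2 fell and 1 rose from d12 to the iPS stage (9.96% and 7.80%).

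Genes that work with the chain moved at d3 as well. Of 19 genes of mitochondrial genome expression, 15 rose in d3 SSEA1+ cells and 16 in d3 SSEA1- cells (medians 1.01 and 0.95, against 25.2% and 24.5% of all genes up), and 13 rose and 1 fell in iPS SSEA1+ cells (35.7% and 28.6% of all genes). Tfam, which packages and transcribes mitochondrial DNA, had 82.1, 65.4 and 66.4 CPM in d3 SSEA1+ cells, against 35.0, 27.2 and 23.9 CPM in MEF, with no overlap, and rose by 1.31 ± 0.21 (adjusted p = 1.3e-05). Of these genes 11 were higher in d12 SSEA1+ than in d12 SSEA1- cells and 0 lower (26.9% and 23.6% of all genes), such as the RNA helicase Supv3l1 (1.02 ± 0.16, adjusted p = 1.4e-05). With the trend removed 16 and 15 rose at d3, 13 rose and 1 fell in iPS SSEA1+ cells, and 13 were higher at d12.

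ATP synthase, which uses the proton gradient, had 6 of 17 nuclear subunits up in d3 SSEA1+ cells, 13 in d3 SSEA1- cells and 5 in iPS SSEA1+ cells, with 0 down in these 3, where 25.2%, 24.5% and 35.7% of all genes rose. Its catalytic core subunit Atp5a1 was higher in SSEA1+ than in SSEA1- cells by 0.76 ± 0.17 at d12 (adjusted p = 0.00066). With the trend removed 7 and 9 rose in d3 SSEA1+ and d3 SSEA1- cells, and 1 rose and 6 fell in iPS SSEA1+ cells. Cyc1, cytochrome c1, is a core subunit of complex III that the rule by symbol does not take in, and it rose by 1.14 ± 0.25 in d3 SSEA1+ cells (adjusted p = 0.0005). Cycs, the electron carrier cytochrome c, rose there by 1.1 ± 0.28 (adjusted p = 0.0025). Of 13 citric acid cycle genes, 10 rose in each d3 fraction, and 5 rose and 2 fell in iPS SSEA1+ cells, against the same shares of all genes. Trend removal gave 11 and 8 up at d3, and 4 up and 5 down in iPS SSEA1+ cells. Citrate synthase, Cs, was at 0.70 ± 0.17 over MEF in d3 SSEA1+ cells (adjusted p = 0.0016) and at -0.28 ± 0.17 in iPS SSEA1+ cells (adjusted p = 0.15).

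Many assembly factors, which help to build the complexes, also rose at d3. In d3 SSEA1+ and d3 SSEA1- cells 8 and 11 of 15 rose for complex I, 2 and 4 of 4 for complex II, 3 and 3 of 6 for complex III and 7 and 10 of 18 tested for complex IV, with 1 fall for complex III in d3 SSEA1+ cells and 1 for complex IV in d3 SSEA1- cells. Of all genes 25.2% and 24.5% rose in these groups. After trend removal 10 and 8 rose for complex I, 2 and 2 for complex II, 3 and 3 for complex III and 7 and 7 for complex IV. Falls then came to 0 and 1 for complex I, 1 and 0 for complex II, 1 and 1 for complex III and 0 and 2 for complex IV. Between the fractions, 3 of the 4 complex II factors, Sdhaf2, Sdhaf3 and Sdhaf4, were lower in SSEA1+ than in SSEA1- cells at every stage. With the trend removed only Sdhaf4 was lower at d3, d6 and the iPS stage, and Sdhaf4 and Sdhaf2 at d9 and d12. Among 7 regulators of mitochondrial biogenesis, Nrf1, Pprc1 and Ppargc1b were higher in SSEA1+ than in SSEA1- cells at all 5 stages, Pprc1 at d3 not with the trend removed (0.66, adjusted p = 0.067). Nrf1, a transcription factor of respiratory genes, was higher in SSEA1+ cells by 0.73 ± 0.18 at d3 (adjusted p = 0.0085) and by 1.36 ± 0.18 at d12 (adjusted p = 2e-06). Ppargc1b, a coactivator of such factors, had 10.2, 12.9 and 19.6 CPM in d3 SSEA1+ cells and 2.76, 3.95 and 6.06 CPM in d3 SSEA1- cells, against 1.57, 0.651 and 1.39 CPM in MEF, and the 3 groups did not overlap. Ppargc1a, its paralogue, had 4.83, 14.8 and 27.0 CPM in d6 SSEA1+ cells and 0.372, 0.0557 and 0.0525 CPM in iPS SSEA1+ cells, against 0.116, 0 and 0.139 CPM in MEF. It rose by 7.43 ± 1.23 in d6 SSEA1+ cells (adjusted p = 2.2e-05) and stood at 0.88 ± 1.52 in iPS SSEA1+ cells (adjusted p = 0.63). Brown fat markers (4 genes) were at 4.77 CPM or less in SSEA1+ libraries and at 0.608 to 109 CPM in SSEA1- libraries, against 9.70 to 19.2 CPM in MEF, and Ucp1, their defining gene, at 0.629 CPM or less in all libraries and at 0 in MEF.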

How the data were processed

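RNA of 33 mouse libraries was analysed from the deposited read counts per gene, 1 table of 37583 gene IDs a library. Per the submitters' processing notes, reads were handled with STAR 2.3.0, Picard 1.100 and HTSeq 0.6.0 on mm9, with no annotation release named. Libraries were made with a strand-marking kit, per the labels' protocols. Of a library's summary lines, reads in no feature came to 4.42 to 15.51%, and they stayed out of library sizes. Reads with several alignments, as a share that includes them, came to 14.95 to 18.55% in MEF and 19.97 to 27.24% in later libraries. They were not counted in genes either, and their part in the results was not tested. Symbols, chromosomes, lengths, GC content and overlaps came from GENCODE M21 (GRCm38), matched by gene ID (32860 of the IDs), and no coordinates were carried between builds.

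Counts were fitted once over all 33 libraries with edgeR 4.0.16 in R 4.3.3 (TMM normalization, filterByExpr, robust quasi-likelihood test), leaving 17326 genes. A gene was called at an adjusted p below 0.05 (Benjamini-Hochberg over all genes tested). The standard error is the log2 fold change over the square root of F. Floors cover counting error only, with 3 counts as the floor. Alternatives were RLE size factors, no filter on low counts, a replicate block, removal of a spline trend on GC content and length (5 df), only the groups compared, each library left out and DESeq2 1.42.0. GC or length alone and union exon lengths were added after seeing the data. The code was tested on simulated data.

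Members and gene lists were chosen with earlier results of these data known. Named were Cox5a, the paralogue pairs of complex IV, per comparison up to 4 called members per direction with at least 5 CPM and no overlap, the member of each complex with the smallest p, and up to 3 called genes of each other list. Same-numbered libraries deviated together (every correlation over 0.1) in 10 of 19 comparisons, and where the numbers come from is not given.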

Additional observations from a re-analysis of the deposited data

Results flagged for a closer look

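The difference between SSEA1+ and SSEA1- cells changed from d3 to d12 for 2 members in a test of that change itself. For Cox5a, a nuclear subunit of complex IV, the log2 difference grew by 1.45 ± 0.37 (adjusted p = 0.0084, edgeR's quasi-likelihood test), and the call held without each library in turn. For Cox7b, which is X-linked, it grew by 1.14 ± 0.39 (adjusted p = 0.046), and the call ended without any 1 of 10 of the 12 libraries and without the filter on low counts (1.07, adjusted p = 0.082). Groups of 3 libraries were not searched for single libraries that stand apart by a fixed test.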

How the results depend on the processing

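The values here are counts of called members in both directions, except where a gene is named, and the cause of each shift was not tested. With the GC and length trend removed, the counts became 22 for d6 SSEA1- over MEF, 7 for SSEA1+ over SSEA1- at d3, 20 at d9, 15 at d12 and 26 at the iPS stage, 10 for SSEA1+ d12 over d9 and 3 for iPS over d12. With the GC trend alone removed they became 7, 15 and 23 for the fractions at d3, d12 and the iPS stage and 4 for SSEA1+ d12 over d9. With the length trend alone removed they became 19 for d9 SSEA1+ over MEF, 18, 16 and 24 for the fractions at d9, d12 and the iPS stage, 10 for SSEA1+ d12 over d9 and 2 for iPS over d12. Fitting only the groups compared gave 7 for iPS SSEA1- over MEF and 5 for the fractions at the iPS stage, where no filter on low counts gave 9. For the change of the fraction difference from d3 to d12, RLE size factors gave 4, no filter 1, the length trend alone 1 and DESeq2 9. The replicate block gave 4 there and 1 for SSEA1+ d6 over d3, moved no other count by over 1.5 times, and kept 300 calls of named members and ended 2, Ndufa1 (0.67) and Cox7b (0.70) in d12 SSEA1- over MEF. With RLE size factors the summed level was 707 CPM for complex II in d3 SSEA1- cells, against 514 CPM in MEF. For complex IV it was 1554 CPM in d3 SSEA1+ cells, against 1404 CPM in MEF, a ratio of 1.11, where TMM gave 1.26.

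Leaving out 1 library gave 20 to 32 called members for d3 SSEA1+ over MEF, 16 to 28 at d6, 14 to 33 at d9 and 19 to 36 at d12, 18 to 29 for d9 SSEA1- over MEF and 13 to 23 at d12. It gave 1 to 13 for the fractions at d3, 7 to 20 at d6 and 9 to 29 at the iPS stage. It gave 0 to 1 for each of SSEA1+ d6 over d3, d12 over d9 and iPS over d12, and 1 to 4 for the change of the fraction difference from d3 to d12.

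With the GC and length trend removed, 25 log2 changes of named members turned sign. For d12 SSEA1+ over MEF these were Ndufa1 (-0.17), Ndufa12 (-0.09), Cox8a (-0.24) and Cox5b (-0.18), and for iPS SSEA1+ over MEF Sdhd (-0.11), Uqcrb (-0.12), Cox7a2 (-0.09), Cox8a (-0.21) and Cox5b (-0.22). For SSEA1- over MEF they were Uqcrb (-0.22) and Cox6b1 (-0.21) at d6, Uqcrb (-0.29) and Ndufa3 (-0.04) at d9, Sdhd (-0.1), Ndufa1 (-0.15), Uqcrb (-0.35) and Uqcrc2 (-0.08) at d12, and Ndufa1 (-0.05), Uqcrb (-0.37), Ndufa4 (-0.03), Ndufc2 (-0.08) and Uqcrh (-0.26) at the iPS stage. For SSEA1+ over SSEA1- at d6 they were Uqcrb (0.18), Ndufa4 (0.11) and Uqcrh (0.09). Uqcrb in iPS SSEA1- over MEF, called higher as deposited, was called lower with the trend removed. Scaling by nuclear genes and a mitochondrial share were not run.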
